A study of Homo sapiens with 12 samples.

Results

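The genes described here belong to the unfolded protein response and the integrated stress response. They were 39 genes named by symbol and matched by Ensembl identifier, of 58051 genes in the count tables. They were kept as 2 branches: 21 genes of the ATF4 branch, which follows from phosphorylation of the translation factor eIF2alpha, and 18 genes of the ER chaperone branch, which follows from IRE1, XBP1 and ATF6 in the endoplasmic reticulum (ER). Each of the 39 genes passed the filter on low counts and was tested.

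The cells were HCT116, an established human colon carcinoma line. They received siRNA against PFDN2, against PFDN5, or a control siRNA (siControl). Both targets are subunits of prefoldin, a cochaperone that hands unfolded actin and tubulin to the chaperonin. All groups went into serum-free medium 24 h after the siRNA and stayed there for 48 h, so the cells taken before serum were also starved cells. The other 3 groups were given serum and collected 90 min later. This gave 6 groups (siControl, siPFDN2 and siPFDN5, before and after serum) of 2 libraries each, 12 libraries in all. The labels do not say that replicates came from separate cultures, so p-values measure the spread between these libraries, which may be technical. Each target was hit by 1 siRNA sequence, so an effect of the target and an effect of that sequence cannot be told apart.

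In the integrated stress response, kinases that sense ER stress, amino acid shortage, haem shortage or viral RNA phosphorylate eIF2alpha. General translation then slows while translation of the ATF4 mRNA goes up, so ATF4 is controlled in large part after transcription. ATF4 drives genes of amino acid synthesis and import together with regulators such as DDIT3 and TRIB3. In the unfolded protein response proper, IRE1 (gene ERN1) cuts a short intron out of the XBP1 mRNA in the cytoplasm, and ATF6 is released from the ER membrane by proteolysis. The spliced XBP1 protein and cleaved ATF6 drive chaperones and degradation factors of the ER. RNA counts read the targets of these routes and not the phosphorylation, the translation or the proteolysis.

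Some of the sequences through which these routes are known to act are shown here to give an example of each motif. Most promoters of both branches held none of them. In the RefSeq promoter table (GRCh38.p14, 250 bases before to 50 after each start), 35 of the 39 genes were found. In all, 4 motifs were searched on both strands. These were the ER stress response element ERSE (CCAAT, any 9 bases, CCACG), its shorter relative ERSE-II (ATTGG, any 1 base, CCACG), the XBP1-type element UPRE (TGACGTGG), and the amino acid response element CARE (TGATGNAAN) bound by ATF4 with a C/EBP protein. At least 1 of the 3 ER stress motifs stood in 7 of 18 ER chaperone promoters, in 0 of 17 ATF4 branch promoters and in 0.927% of 27305 promoters of all genes. CARE stood in 4 of 17 ATF4 branch promoters (CHAC1, ASNS, SLC3A2 and SLC7A1), in 1 of 18 ER chaperone promoters (HERPUD1) and in 3.67% of all promoters. A match describes letters in this window and does not show a bound site. Capitals mark the matched motif in the following stretches, read 5′ to 3′ on the strand of the gene up to the first annotated exon, or with 10 bases on each side of the match for CHAC1 and ASNS. XBP1 and HERPUD1 are shown as the ER chaperone genes with a motif that rose in siPFDN5 after serum, SDF2L1 for its large values, HSPA5 as the usual marker of the response, and CHAC1 and ASNS as examples with CARE. HERPUD1 carried motifs of both kinds.
XBP1 (chr22:28800598-28800819, minus strand, ERSE): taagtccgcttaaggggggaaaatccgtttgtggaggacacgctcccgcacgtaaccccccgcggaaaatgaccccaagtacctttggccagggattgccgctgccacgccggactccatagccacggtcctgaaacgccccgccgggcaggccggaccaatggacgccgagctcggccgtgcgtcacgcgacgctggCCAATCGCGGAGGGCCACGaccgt
HSPA5 (chr9:125241344-125241593, minus strand, ERSE): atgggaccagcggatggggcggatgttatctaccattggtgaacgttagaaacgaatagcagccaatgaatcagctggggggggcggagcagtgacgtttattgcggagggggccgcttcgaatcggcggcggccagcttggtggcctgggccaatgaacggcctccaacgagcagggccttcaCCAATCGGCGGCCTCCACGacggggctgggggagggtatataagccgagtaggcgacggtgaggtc
SDF2L1 (chr22:21642052-21642260, plus strand, ERSE-II on the other strand): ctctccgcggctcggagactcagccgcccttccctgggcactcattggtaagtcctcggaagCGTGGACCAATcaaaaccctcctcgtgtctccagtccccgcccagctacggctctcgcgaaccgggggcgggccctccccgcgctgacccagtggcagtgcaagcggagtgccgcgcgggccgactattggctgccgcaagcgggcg
HERPUD1 (chr16:56931892-56932047, plus strand, CARE on the other strand, then ERSE-II): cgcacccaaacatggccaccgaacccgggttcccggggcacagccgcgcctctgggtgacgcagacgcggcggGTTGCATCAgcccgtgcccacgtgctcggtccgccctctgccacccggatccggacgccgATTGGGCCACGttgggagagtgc
CHAC1 (chr15:40953251-40953279, plus strand, CARE on the other strand): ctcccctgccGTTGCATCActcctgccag
ASNS (chr7:97872458-97872486, minus strand, CARE): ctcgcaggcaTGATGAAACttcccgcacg

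A last sequence matters for the splicing results: the 26 bases that IRE1 removes from the XBP1 mRNA (GRCh38, chr22:28796122-28796147, minus strand, within a coding exon), here in capitals with 12 bases on each side.
XBP1 intron: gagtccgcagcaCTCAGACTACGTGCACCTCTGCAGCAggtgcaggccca

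The 12 libraries held between 59784425 and 136504590 counts over gene bodies. Values are given as CPM, counts for every 1000000 counts of a library after TMM scaling (a scaling to the bulk of genes), from counts over whole gene bodies unless exons are named. PFDN2 was at 7.55 and 8.49 CPM in siPFDN2 before serum, against 11.5 and 11.2 in siControl, and at 8.73 and 9.47 against 19.5 and 16.3 after serum. PFDN5 was at 41.0 and 44.2 CPM in siPFDN5 before serum, against 76.8 and 68.9 in siControl. It stood at 67.5 and 68.6 in the libraries labelled siPFDN5 after serum, against 67.9 and 74.0 in siControl after serum, so the targeted mRNA goes against that label. PFDN5 itself was called higher in these libraries than in siPFDN5 before serum (log2 difference 0.68, adjusted p = 0.0156). Against siControl, over all 12 libraries, neither PFDN2 nor PFDN5 was called with either siRNA at either time. The smaller adjusted p of the 2 genes by edgeR was 0.44 for siPFDN2 before serum and 0.77 after it. For siPFDN5 it was 0.104 before serum and 0.108 after it. The lower target levels are thus a description of the CPM values. The adjusted p for siPFDN5 need not belong to PFDN5, since PFDN2 was above siControl there. Before serum PFDN2 held 21.8 and 21.1 CPM in siPFDN5 (log2 difference 0.92). In the libraries labelled siPFDN5 after serum it held 23.1 and 28.7 (0.53), while the PFDN5 difference was -0.06. The 0.108 is therefore no sign of a lowered PFDN5. Compared with siPFDN2, PFDN2 was called higher in siPFDN5 at both times (1.42 and 1.51). Replicate 2 of siPFDN2 before serum stood apart: over 12113 genes its log2 difference from replicate 1 had an SD of 0.681, against 0.116 to 0.301 between the replicates of the other 5 groups. Its deviations followed GC content across genes (Spearman's rho 0.688, against -0.280 to 0.133 in the other libraries). The median GC content was 52.3% over the ATF4 branch, 45.5% over the ER chaperone branch and 48.2% over all tested genes. Of 8 colon epithelial markers, 7 were kept by the filter, and EPCAM, CDH1, KRT8, KRT18, KRT19, CDX2 and VIL1 were present. Their summed level was 1856 and 1894 CPM in siPFDN5 before serum and 2871 and 2890 in the libraries labelled siPFDN5 after serum, against 1940 to 2673 in the other 8. KRT8 (0.74) and KRT18 (0.75) were called higher in that comparison, where the median over the 7 was 0.33, and the part of this in the results was not tested. Of 7 markers of leukocytes, fibroblasts, endothelium and liver, 3 were kept. Their summed level over the groups ranged from 4.44 to 16.3 CPM, nearly all of it COL1A1, while PTPRC, CD3E, COL1A2 and ALB stayed under 0.15 CPM in every library. That sum was 4.44 to 5.59 CPM before serum in siControl and 11.5 to 14.3 after it, and its part in the results was not tested.

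Tests were edgeR's quasi-likelihood F tests on all 12 libraries with Benjamini-Hochberg adjustment over 27915 genes, and a gene is said to have risen or fallen, or to be called, only where the adjusted p was under 0.05. Differences are on the log2 scale with their standard error (SE). All comparisons share the spread estimated for a gene, to which replicate 2 of siPFDN2 before serum contributes. Its part in the number of calls was not tested, and counts are given with it and without it. Without it that group has 1 library, which is then assumed to vary like the others.

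Per kilobase of exon, the levels of the 39 genes in siControl before serum covered a wide range. The ER lumenal chaperones CALR (299 ± 13.8 exon CPM per kb, SD, n = 2) and HSP90B1 (187 ± 7.04) were highest, followed by the amino acid transporter SLC38A2 (116 ± 9.52), PDIA4 (95.2 ± 0.295), HSPA5 (89.6 ± 0.569) and ATF4 (89.3 ± 0.549). HSPA5 and ATF4 did not differ beyond their spread. The sensors were far lower: ATF6 at 8.69 ± 0.614, EIF2AK3 at 4.71 ± 0.457 and ERN1 at 1.56 ± 0.0645. CHAC1 (1.35 ± 0.00604), NUPR1 (0.0319 ± 0.0308) and VLDLR (0.0120 ± 0.00306) closed the order.

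In the ATF4 branch PPP1R15A was the gene that rose after serum with each siRNA. It encodes GADD34, the regulatory subunit that brings a phosphatase back to eIF2alpha and ends the response. PPP1R15A stood at 19 and 19.4 CPM before serum in siControl and at 73.2 and 68.5 after it. In siPFDN2 it went from 19.7 and 31.7 to 66.6 and 76.4, and in siPFDN5 from 19.5 and 20.2 to 70.5 and 75.3 in the libraries labelled siPFDN5 after serum. No library before serum reached any library after it. The log2 rise in siControl was 1.88 (SE 0.20) with an adjusted p of 0.00031 by edgeR. In siPFDN2 it was 1.47 (SE 0.20) with an adjusted p of 0.0020, and in siPFDN5 it was 1.87 (SE 0.20) with an adjusted p of 0.00036. The rise in siPFDN5 minus that in siControl was -0.01 (SE 0.28). The siPFDN2 rise was 1.86 without replicate 2 of siPFDN2 before serum.

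In siControl, PPP1R15A was the 1 called gene of the 21 in the ATF4 branch and of the 39 in all. Across all tested genes 2.87% were called in that comparison, 2.47% higher and 0.394% lower. The median log2 change was 0.04 over the ATF4 branch and 0.06 over the ER chaperone branch, against 0.01 over all genes. The next largest value in the ATF4 branch with an appreciable level was that of SLC7A1, an importer of arginine and lysine, at 85.6 and 92.2 CPM before serum and 154 and 127 after it. Its groups did not overlap, but the difference missed the threshold (0.66, SE 0.17, adjusted p = 0.071). Without replicate 2 of siPFDN2 before serum, 6 genes were called in siControl, of which PPP1R15A, SLC7A1 (0.65), SLC38A2 (0.43), SLC7A5 (0.41) and the ER chaperone gene SDF2L1 (0.54) rose and TRIB3, a pseudokinase that restrains ATF4, fell (-0.40). All tested genes were then called at 6.2% higher and 3.75% lower.

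In siPFDN2, PPP1R15A was again the 1 called gene of the 39, where 3.26% of all genes were called, 2.06% higher and 1.2% lower. Replicate 2 before serum went its own way for several genes of the branch. SLC7A5, a subunit of the leucine transporter, stood at 198 CPM in replicate 1 and 454 in replicate 2, and SLC38A2, which imports small neutral amino acids, at 672 and 308. After serum the same genes stood at 203 and 200 CPM, and at 1103 and 989. Without that replicate SLC38A2 was also called higher after serum (0.64), which made 2 called genes in this comparison, where 2.51% of all genes were called higher and 1.48% lower.

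In siPFDN5 the libraries labelled siPFDN5 after serum differed from those before serum in 8 of the 39 genes, 6 higher and 2 lower. Of all tested genes 12.2% were called, 5.72% higher and 6.48% lower. In the ATF4 branch 4 genes rose and 1 fell, and its median was 0.41 against -0.03 over all genes. In the ER chaperone branch 2 rose and 1 fell, with a median of 0.32. The direction after serum rests on libraries in which PFDN5 was not lowered. Fewer of the 39 genes were called when any 1 of the 4 libraries compared was left out. The share of all genes called in those fits is not given, so this does not set the 39 apart from other genes. ATF4 lost its call without replicate 1 of siPFDN5 before serum (adjusted p = 0.0757 by edgeR) and without replicate 2 (0.0521).

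ATF4 itself, the transcription factor of the branch, stood at 139 and 140 CPM before serum in siPFDN5, the lowest values of the 12 libraries. In the libraries labelled siPFDN5 after serum it stood at 261 in both, the highest values. The siControl libraries held 183 and 182 CPM before serum and 185 and 223 after it, and the siPFDN2 libraries 191 and 194, then 237 and 246. The log2 rise of ATF4 in siPFDN5 was 0.90 (SE 0.13, adjusted p = 0.0033 by edgeR). The same rise was 0.16 (SE 0.13) in siControl and 0.33 (SE 0.13) in siPFDN2. The difference between the siPFDN5 and siControl rises was 0.74 (SE 0.19) and missed the threshold (adjusted p = 0.096). No gene of any kind was called in that test over all 12 libraries, while 7 of the 21 ATF4 branch genes, 4 of the 18 ER chaperone genes and 20.9% of all genes had an unadjusted p under 0.05. DESeq2 called 3 of the 39 and 6.77% of all genes. The ATF4 difference was 0.75 and was called without replicate 2 of siPFDN2 before serum.

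**Figure D1:**
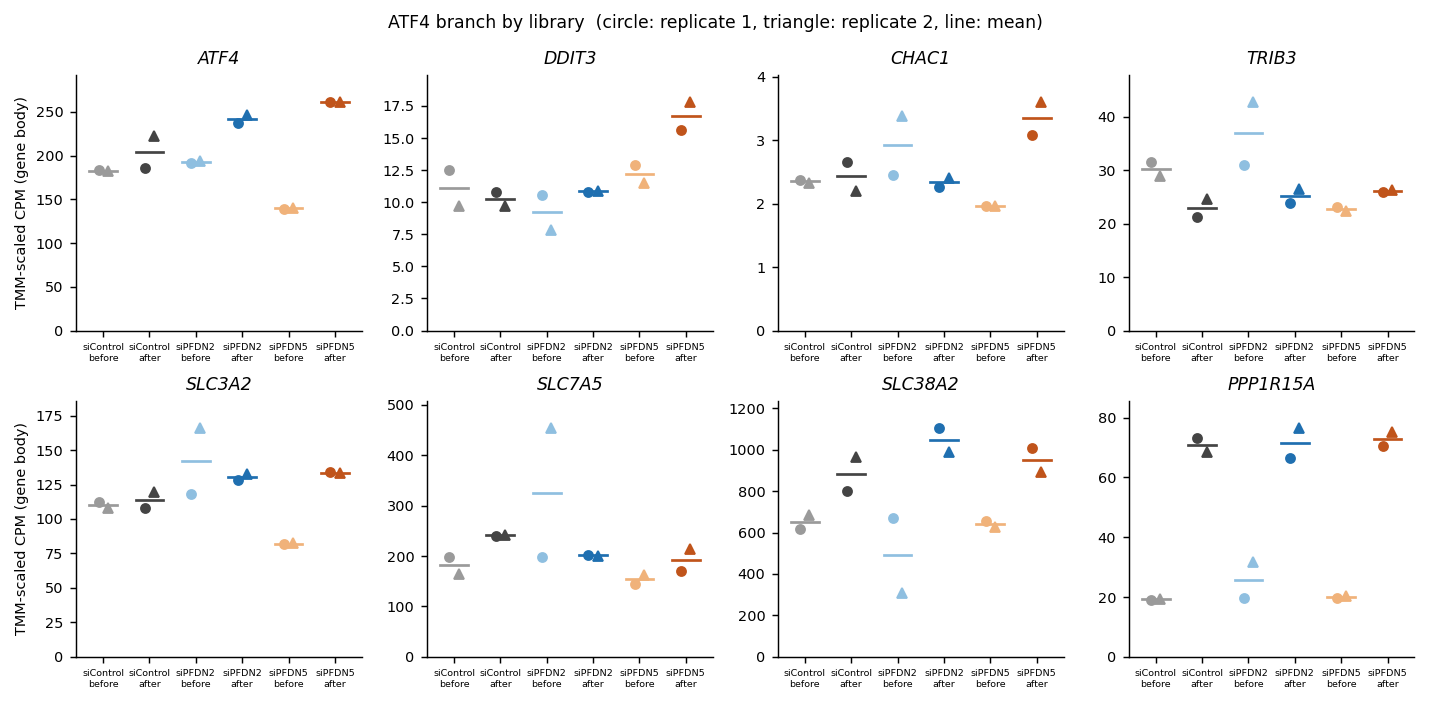
TMM-scaled CPM over gene bodies (vertical axes, each from 0) of 8 ATF4 branch genes in the 12 libraries, by group; circles are replicate 1, triangles replicate 2 and lines the group means. PPP1R15A is higher in all 6 libraries after serum, ATF4 and SLC3A2 are lowest in siPFDN5 before serum, and replicate 2 of siPFDN2 before serum lies apart for SLC7A5 and SLC38A2.

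Among the other regulators, DDIT3 encodes CHOP, a factor tied to cell death in prolonged stress. It stood at 12.9 and 11.5 CPM before serum in siPFDN5 and at 15.7 and 17.8 in the libraries labelled siPFDN5 after serum. The siControl libraries held 12.5 and 9.74 before serum and 10.8 and 9.74 after it. The libraries labelled siPFDN5 after serum were thus above all others for DDIT3. Their difference from siControl after serum was 0.71 (SE 0.19, adjusted p = 0.090). Of DDIT3's exon bases 28.0% are shared with other genes, and the counting took no account of strand, so its counts are uncertain. ATF5, a related factor, stood between 12.2 and 25 CPM and CEBPB between 10.9 and 21, and in both the highest value was replicate 2 of siPFDN2 before serum. CEBPG, a C/EBP partner of ATF4, stood between 28.4 and 55.0 CPM with the lowest value in that library. TRIB3 stood at 31.5 and 29 CPM before serum in siControl and 21.2 and 24.7 after it, and at 23.1 and 22.4 in siPFDN5 before serum. None of these 5 passed the test over all 12 libraries.

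CHAC1, an enzyme that degrades glutathione, stood at 1.96 and 1.97 CPM before serum in siPFDN5 and 3.09 and 3.60 in the libraries labelled siPFDN5 after serum. Its rise of 0.77 (SE 0.21) had an adjusted p of 0.037 by edgeR. The call was lost with exon counts (log2 difference 0.63), with upper-quartile scaling (log2 difference 0.70) and with library size scaling alone (log2 difference 0.62). It was also lost without any 1 of 8 libraries: both of siPFDN5 before serum, both labelled siPFDN5 after serum, both of siControl before serum and both of siPFDN2 after serum. Over its alternatives the adjusted p ran from 0.00057 to 0.21. SLC3A2, the heavy chain shared by several amino acid exchangers, stood at 81.7 and 82.6 CPM before serum in siPFDN5, below every other library, and at 134 and 133 in the libraries labelled siPFDN5 after serum. It rose by 0.70 (SE 0.16, adjusted p = 0.025 by edgeR). The call was lost with exon counts (log2 difference 0.62), with library size scaling alone (log2 difference 0.55) and without any 1 of the 4 libraries compared, and the value in intronic counts was -0.13. Over its alternatives the adjusted p ran from 1.45e-06 to 0.722.

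The transporters SLC7A11 and SLC7A5, whose products pair with that of SLC3A2, and SLC7A1 and SLC38A2, which act without it, were not called there over all 12 libraries, and no difference from SLC3A2 was tested. SLC7A11, the cystine importer, had a value of -0.02 (SE 0.31) in the same comparison, and its libraries stood at 39.2 and 40.7 CPM before serum and 41.0 and 37.9 in those labelled siPFDN5 after serum. SLC7A5 had a value of 0.32 (SE 0.29), with 145 and 163 CPM, then 170 and 215. SLC7A1 stood at 90.9 and 97.3 CPM, then 95.5 and 106, while SLC38A2 stood at 655 and 628, then 1009 and 890 (0.57, SE 0.28, adjusted p = 0.19).

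The 6 enzymes of serine, glycine, one-carbon and asparagine synthesis had positive values in this siPFDN5 comparison, except PSPH under library size scaling alone (-0.01), and none was called over all 12 libraries. The mitochondrial one-carbon enzyme MTHFD2 stood at 211 and 210 CPM before serum and 344 and 317 in the libraries labelled siPFDN5 after serum; the difference was 0.65 (SE 0.21, adjusted p = 0.067). Of its exon bases 33.2% are shared with other genes. The serine hydroxymethyltransferase SHMT2 stood at 100 and 104 CPM, then 137 and 141 (0.44, SE 0.15, adjusted p = 0.073). The asparagine synthetase ASNS stood at 41.9 and 44.2, then 58.9 and 58.2 (0.44, SE 0.21), and the serine pathway enzymes PSAT1, PHGDH and PSPH had values of 0.37, 0.31 and 0.15. For these 6 enzymes the groups did not overlap in siPFDN5, where 36.8% of all genes stood wholly higher.

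The remaining genes of the branch were near the limit of detection. VLDLR, a lipoprotein receptor induced by ATF4 in other cells, fell from 0.892 and 0.518 CPM (56 and 35 counts) in siPFDN5 before serum to 0.0702 and 0.117 (5 and 10 counts) in the libraries labelled siPFDN5 after serum. The fitted log2 difference was -2.87 (SE 0.46, adjusted p = 0.0055 by edgeR), and VLDLR stood at 0.312 CPM or less in the other 8 libraries. The call was lost without replicate 1 of siPFDN5 before serum (adjusted p = 0.0715) and without replicate 1 of those labelled siPFDN5 after serum (0.0739), over a range from 6.88e-08. NUPR1, a small stress-induced chromatin protein, had 2 to 23 counts a library and 0.0331 to 0.248 CPM, and was not called in any comparison over all 12 libraries.

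Before serum the values of the ATF4 branch were mostly lower in siPFDN5 than in siControl: 15 of 21 were negative, the median was -0.15 against 0.01 over all genes, and 10 genes stood wholly lower, where 30.5% of all genes did. None of the 39 genes was called over all 12 libraries, with 0.00716% of all genes called, while 4 genes of the ATF4 branch and 3 of the ER chaperone branch had an unadjusted p under 0.05, where 12.3% of all genes did. DESeq2 called none of the 39 and 1.43% of all genes. The values were -0.39 (SE 0.13, adjusted p = 0.28) for ATF4, -0.42 (SE 0.16, adjusted p = 0.34) for SLC3A2, -0.41 (SE 0.17) for TRIB3 and -0.38 (SE 0.19) for PHGDH. With replicate 2 of siPFDN2 before serum left out, these 4 genes were called lower, with no other gene of the branch called. All tested genes were then called at 3.08% higher and 3.89% lower. In siPFDN2 before serum none of the 39 genes was called against siControl, with 0% of all genes called, and 5 of the 39 had an unadjusted p under 0.05, where 11.3% of all genes did. DESeq2 called 1 of the 39 and 0.102% of all genes.

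After serum the ATF4 branch had a median of 0.19 in the libraries labelled siPFDN5 after serum against siControl after serum, where the median over all genes was -0.04. The branch median was 0.03 and the median over all genes -0.20 with library size scaling alone, the setting that moved all genes most. None of the 39 genes was called over all 12 libraries and 0.00358% of all genes were, while 5 of the 21 genes of this branch had an unadjusted p under 0.05, close to the 21.6% of all genes that did. DESeq2 called 6 of the 39 in the same comparison: DDIT3 of this branch and XBP1, PDIA4, DNAJB11, HERPUD1 and MANF of the ER chaperone branch, all higher, where it called 3.75% of all genes higher and 4.01% lower. With replicate 2 of siPFDN2 before serum left out, 8 ATF4 branch genes were called higher and SLC7A1 was called lower (-0.47). The 8 were DDIT3 (0.71), CHAC1 (0.47), ATF4 (0.36), MTHFD2 (0.36), SHMT2 (0.33), CEBPG (0.30), ASNS (0.28) and SLC3A2 (0.24). All tested genes were then called at 13.8% higher and 10.1% lower. In siPFDN2 after serum against siControl after serum, none of the 39 genes was called, with 0% of all genes called, and none had an unadjusted p under 0.05, where 6.26% of all genes did. DESeq2 called none of the 39 and 0.00206% of all genes.

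In the ER chaperone branch most values of siPFDN5 against siControl were positive before serum, where most of those in the ATF4 branch were negative, and no test of the difference between branches was made. Before serum 13 of 18 values were positive, the median was 0.22, and 12 genes stood wholly higher, where 32.9% of all genes did. After serum 16 of 18 values were positive, with a median of 0.47, and 14 genes stood wholly higher, where 30.6% of all genes did. The median after serum was 0.31 with library size scaling alone, 0.36 with exon counts and 0.38 with intronic counts, against -0.20, -0.02 and -0.05 over all genes. Over all 12 libraries edgeR called none of the 18 in either comparison, and 3 before serum and 10 after it had an unadjusted p under 0.05, where 12.3% and 21.6% of all genes did.

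**Figure D2:**
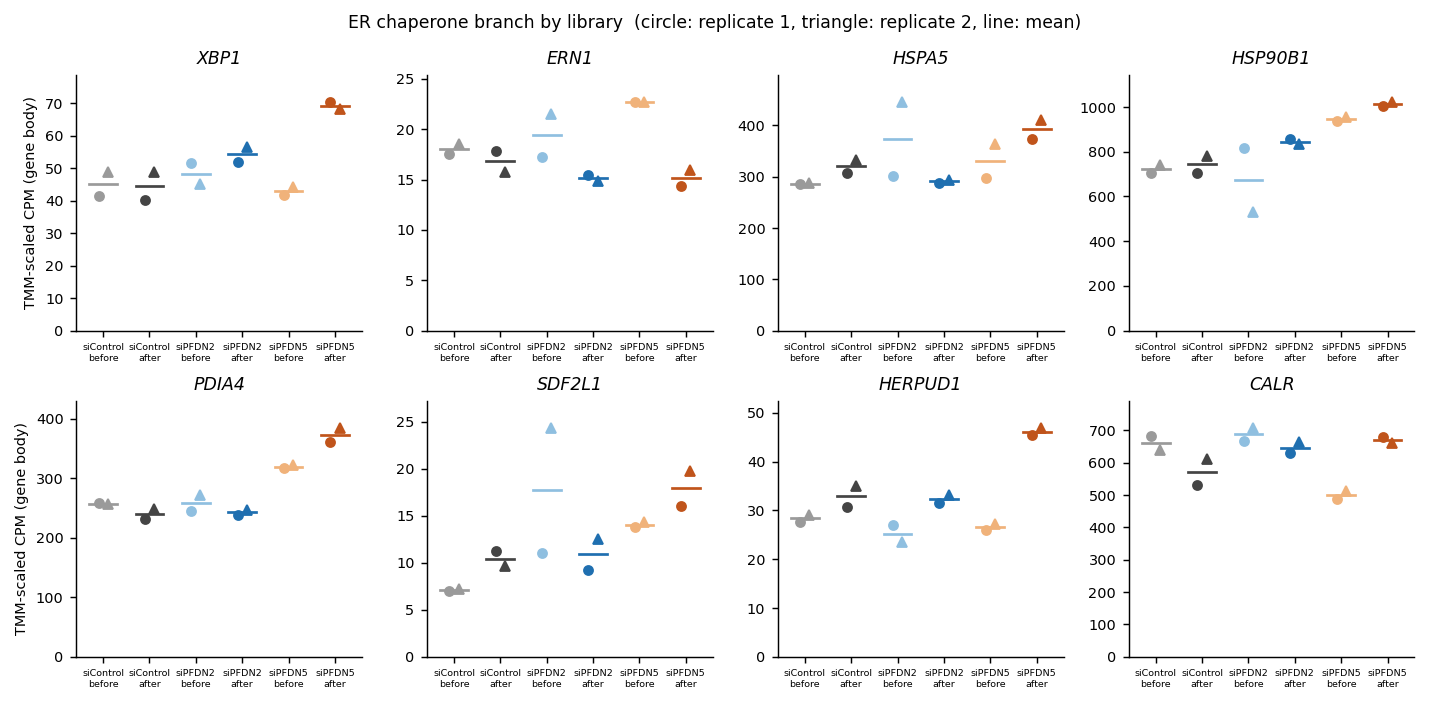
TMM-scaled CPM over gene bodies (vertical axes, each from 0) of 8 ER chaperone branch genes in the 12 libraries, by group; circles are replicate 1, triangles replicate 2 and lines the group means. The libraries labelled siPFDN5 after serum stand highest for XBP1, PDIA4 and HERPUD1, and siPFDN5 stands above siControl at both times for HSP90B1, PDIA4 and SDF2L1.

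Among the chaperones, HSP90B1 encodes GRP94, the HSP90 of the ER. It stood at 703 and 741 CPM before serum in siControl and 939 and 958 in siPFDN5 before serum. After serum it stood at 707 and 783 in siControl and at 1006 and 1023 in the libraries labelled siPFDN5 after serum. The differences of 0.39 (SE 0.18) before serum and 0.45 (SE 0.18) after it had adjusted p of 0.41 and 0.19. The disulfide isomerase PDIA4 showed the same order, with 258 and 256 CPM in siControl and 317 and 322 in siPFDN5 before serum. After serum it stood at 231 and 249 in siControl and at 360 and 384 in the libraries labelled siPFDN5 after serum; the difference was 0.63 (SE 0.13, adjusted p = 0.071). SDF2L1, a partner of HSPA5 in the ER lumen, stood at 7.05 and 7.20 CPM before serum in siControl and 13.8 and 14.3 in siPFDN5 (0.98, SE 0.30, adjusted p = 0.26). After serum it stood at 11.2 and 9.62 in siControl and 16.1 and 19.8 in the libraries labelled siPFDN5 after serum, and replicate 2 of siPFDN2 before serum held the highest value, 24.3.

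HSPA5, which encodes BiP, the main HSP70 chaperone of the ER and the usual marker of this response, had smaller differences between siPFDN5 and siControl than these 3 genes. It stood at 285 and 287 CPM before serum in siControl, 297 and 363 in siPFDN5 before serum, 307 and 333 in siControl after serum, and 374 and 411 in the libraries labelled siPFDN5 after serum. In siPFDN2 it stood at 301 and 446 before serum, the latter in replicate 2 and the highest value of the 12, and at 289 and 293 after it. Its differences between siPFDN5 and siControl were 0.21 before serum and 0.29 after it (SE 0.18 each). Before serum 5 of the 18 values of the branch were negative, among them those of DNAJC3 and of CALR, a calcium-binding lectin chaperone. The value of CALR was the lowest. CALR stood at 683 and 640 CPM in siControl and 486 and 512 in siPFDN5 (-0.41, SE 0.13, adjusted p = 0.27 by edgeR). After serum it stood at 530 and 611 in siControl and 679 and 662 in the libraries labelled siPFDN5 after serum. Of the other folding factors, DNAJB11 had a difference from siControl after serum of 0.63 (SE 0.15), MANF of 0.74 (SE 0.16), CRELD2 of 0.64 (SE 0.24), PDIA6 of 0.49 (SE 0.16), DNAJB9 of 0.49 (SE 0.24) and DNAJC3 of 0.14 (SE 0.20). The adjusted p of these 6 ran from 0.073 to 0.74. Of the exon bases of DNAJB11 and PDIA6, 23.2% and 25.2% are shared with other genes.

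Without replicate 2 of siPFDN2 before serum, 11 of the 18 ER chaperone genes were called higher in the libraries labelled siPFDN5 after serum than in siControl after serum. They were XBP1, HSPA5, HSP90B1, PDIA4, PDIA6, DNAJB9, DNAJB11, SDF2L1, HERPUD1, CRELD2 and MANF, with values from 0.30 (HSPA5) to 0.79 (SDF2L1). EDEM1, which pulls misfolded glycoproteins from the folding cycle, was called lower (-0.41). Of all tested genes 13.8% were then called higher and 10.1% lower. Removing the trend with GC content from all libraries gave 10 higher and 1 lower, where 7.9% of all genes were called higher and 5.57% lower. Before serum, without the same replicate, 6 genes were called higher: SDF2L1 (0.97), HSP90B1 (0.39), CRELD2 (0.32), PDIA4 (0.31), DNAJB11 (0.29) and the degradation factor SEL1L (0.29). CALR was called lower (-0.41), where 3.08% of all genes were called higher and 3.89% lower. Against siPFDN2 after serum, the libraries labelled siPFDN5 after serum then had 7 ER chaperone genes called higher, and DDIT3, where 3.32% of all genes were called higher and 0.892% lower. No gene of the 39 was called in that comparison over all 12 libraries (0.0179% of all genes), where 8 ER chaperone genes, 2 ATF4 branch genes and 7.92% of all genes had an unadjusted p under 0.05. DESeq2 called 1 of the 39 and 0.4% of all genes there. Before serum siPFDN5 and siPFDN2 likewise differed in no called gene of the 39 (0.0788% of all genes), with 10 ATF4 branch and 3 ER chaperone genes at an unadjusted p under 0.05, where 29% of all genes had one. DESeq2 called 8 of the 39 and 16.3% of all genes. With the same replicate left out, ATF4 (-0.46), TRIB3 (-0.45) and SLC3A2 (-0.53) were called lower in siPFDN5 and PDIA4 (0.38) higher, where 1.28% of all genes were called higher and 1.87% lower.

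**Figure D3:**
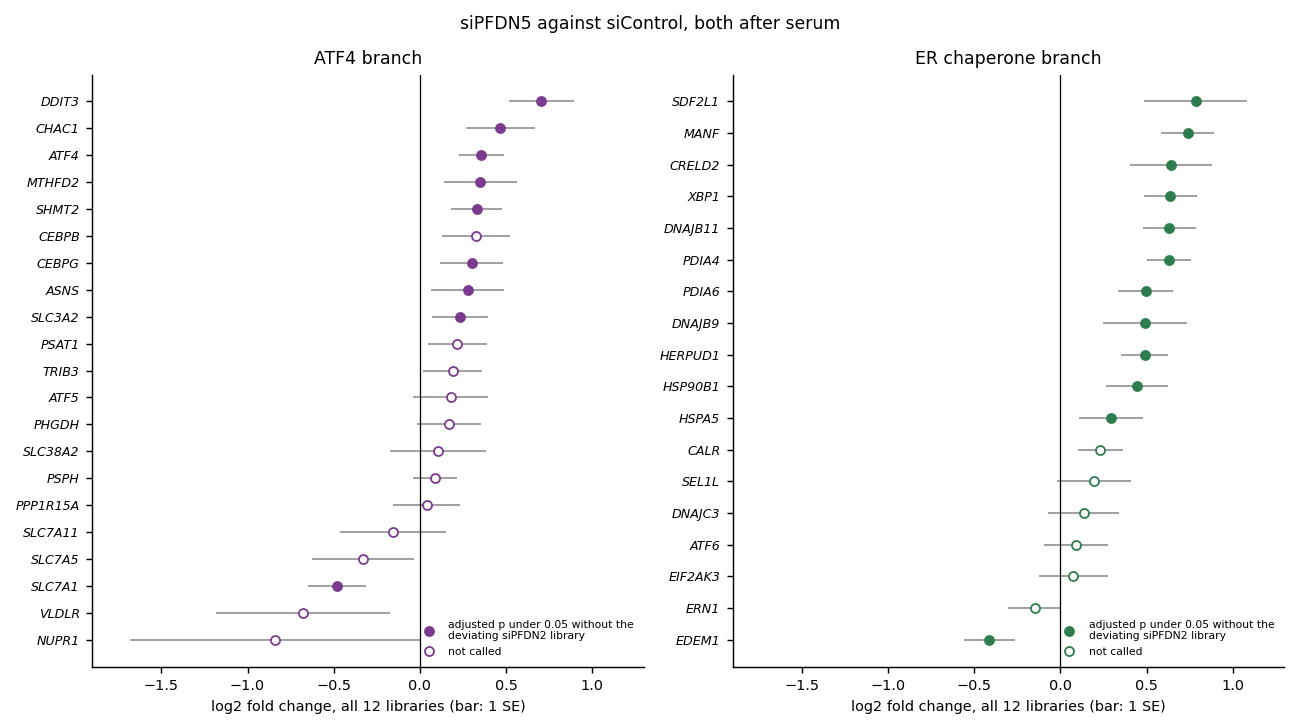
Log2 fold change (horizontal axis) of the 39 genes in the libraries labelled siPFDN5 after serum against siControl after serum, with all 12 libraries, bars 1 SE. Filled points mark genes called once replicate 2 of siPFDN2 before serum is left out: 11 higher and 1 lower in the ER chaperone branch, and 8 higher and 1 lower in the ATF4 branch. Of all genes 13.8% were called higher and 10.1% lower without that replicate. None of the 39 was called with all 12 libraries.

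Among the genes that changed with serum, XBP1 stood at 41.7 and 44.3 CPM before serum in siPFDN5 and 70.4 and 68.1 in the libraries labelled siPFDN5 after serum. In siControl it stood at 41.3 and 48.7, then 40.3 and 48.7, and in siPFDN2 at 51.6 and 45.1, then 52.0 and 56.6. The libraries labelled siPFDN5 after serum thus lay above the other 10. The rise in siPFDN5 was 0.69 (SE 0.15, adjusted p = 0.021 by edgeR) and the value in siControl -0.02 (SE 0.15). The difference of these rises was 0.70 (SE 0.22, adjusted p = 0.11). HERPUD1, a membrane protein of ER-associated degradation, stood at 26.1 and 27.2 CPM before serum in siPFDN5 and 45.4 and 46.9 in the libraries labelled siPFDN5 after serum. The highest of the other 10 libraries stood at 35.0 CPM. It rose by 0.79 (SE 0.14, adjusted p = 0.0086), against 0.21 (SE 0.14) in siControl and 0.36 (SE 0.14) in siPFDN2. The calls of XBP1 and HERPUD1 in siPFDN5 were both lost with intronic counts and without any 1 of the 4 libraries compared. Over the alternatives the adjusted p ran from 2.21e-06 to 0.948 for XBP1 and from 1.3e-06 to 0.623 for HERPUD1.

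The 3 sensors did not share a pattern. ERN1 stood at 22.7 CPM in both siPFDN5 libraries before serum, the highest values of the 12, and at 14.4 and 15.9 in the libraries labelled siPFDN5 after serum. It fell by 0.58 on the log2 scale (SE 0.16, adjusted p = 0.037 by edgeR). The call was lost with exon counts, with no filter and without any 1 of 8 libraries, those of all groups but siPFDN2 before serum and siControl after serum, with an adjusted p from 4.01e-05 to 0.276 over its alternatives. In siControl it stood at 17.5 and 18.6, then 17.9 and 15.7. EIF2AK3, which encodes PERK, the eIF2alpha kinase of the ER, stood at 23.6 and 25.1 CPM before serum in siPFDN5 and 30.8 and 28.5 in the libraries labelled siPFDN5 after serum; the difference was 0.29 (SE 0.20). ATF6 stood at 74.5 and 70.2, then 70.6 and 68.3 (-0.06, SE 0.19). Of the degradation factors, SEL1L had a value of -0.11 (SE 0.22) and EDEM1 of -0.24 (SE 0.15) in the same comparison.

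Without replicate 2 of siPFDN2 before serum, 27 of the 39 genes were called when the libraries labelled siPFDN5 after serum were set against siPFDN5 before it. In the ATF4 branch 15 rose and VLDLR fell, and in the ER chaperone branch 10 rose and ERN1 fell, where 20.1% of all genes were called higher and 16.3% lower. The 5 ATF4 branch genes outside this count were TRIB3, PSPH, SLC7A11, SLC7A1 and NUPR1. The difference between the siPFDN5 and siControl responses was then called in 21 genes, where 12.2% of all genes were called higher and 9.58% lower. In it 11 ATF4 branch genes were higher and SLC7A1 (-0.55) and VLDLR (-1.97) lower, while 7 ER chaperone genes were higher and ERN1 (-0.47) lower. The largest positive values were 0.75 for ATF4, 0.74 for CHAC1 and 0.71 for XBP1. In siPFDN2 the corresponding difference from siControl had no called gene among the 39, with or without that replicate, and 0% of all genes were called in both.

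**Figure D4:**
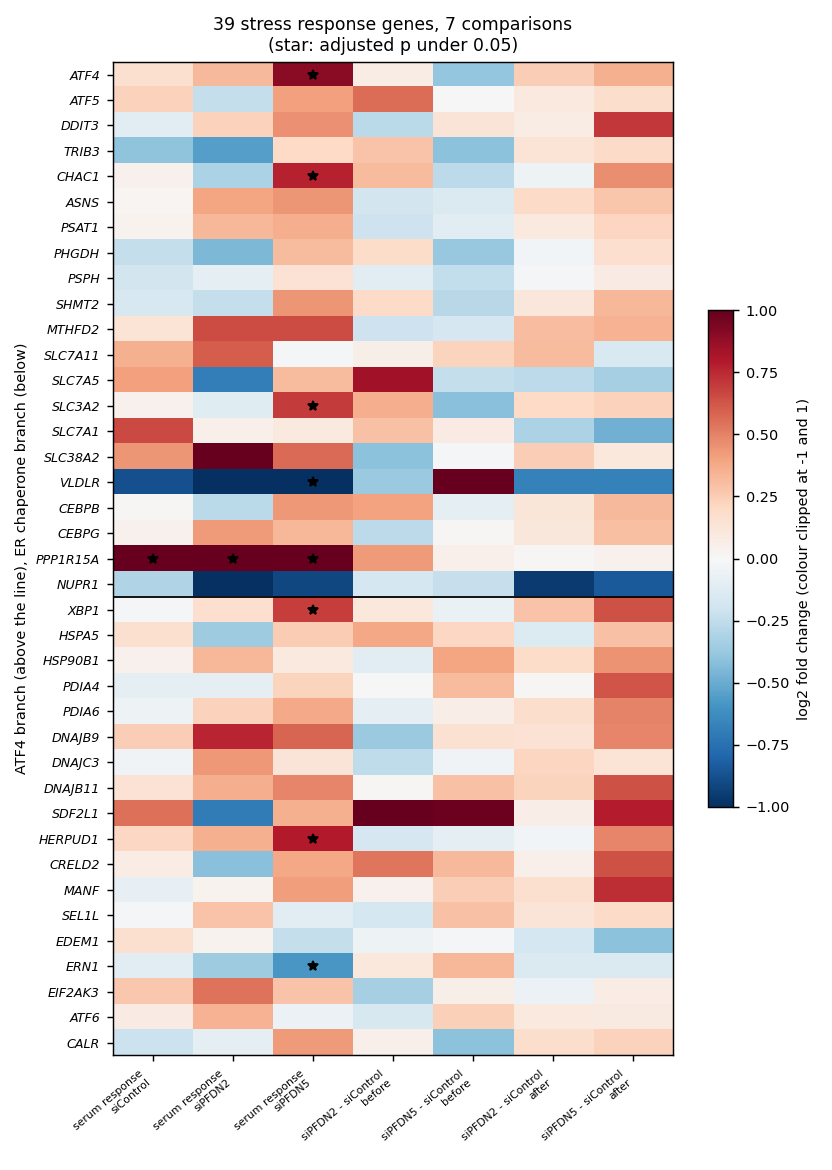
Log2 fold change (colour, red higher and blue lower, clipped at -1 and 1) of the 39 genes (rows) in 7 comparisons (columns) over all 12 libraries; stars mark adjusted p under 0.05. PPP1R15A carries a star in all 3 serum comparisons and the other 7 starred genes are starred in siPFDN5 alone, where a star in one column and not in another is not a test of their difference.

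The share of gene-body counts lying outside exons moved with several of these comparisons. It was 22.8% and 25.9% in siPFDN5 before serum, above every other library, and 17.2% and 14.8% in the libraries labelled siPFDN5 after serum. Before serum it was 15.0% and 17.3% in siControl and 16.2% and 16.1% in siPFDN2. After serum it was 20.6% and 16.2% in siControl and 20.9% and 19.3% in siPFDN2, so its groups did not overlap in the siPFDN2 and siPFDN5 serum responses, in siPFDN5 against siControl before serum, or in siPFDN5 against siPFDN2 at either time. In exon counts, siPFDN5 against siControl before serum had a median of -0.09 over the ATF4 branch and 0.23 over the ER chaperone branch. With exon counts alone, 5 of the 8 genes were still called in siPFDN5: ATF4 (0.78), PPP1R15A (1.76), XBP1 (0.57), HERPUD1 (0.72) and VLDLR (-3.45), where 2.72% of all genes were called higher and 1.49% lower. Intronic counts, the gene-body count less the exon count, bear more on RNA not yet spliced. In them XBP1 had a value of 0.03 and HERPUD1 of 0.16 in siPFDN5, and neither was called, while ATF5 (0.81) and SLC7A5 (1.02) were called higher, where 13.3% of all genes were called higher and 14.5% lower. SLC7A1 was called higher in siControl with intronic counts (1.63), and DDIT3 (-1.11) and CALR (-1.38) were called lower, where 6.25% of all genes were called higher and 2.38% lower. Antisense and overlapping genes also enter such counts.

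Splicing of XBP1 was read from the deposited transcript estimates, in which XBP1-202 and XBP1-207 lack the 26 bases printed above and 3 other protein-coding forms keep them. The spliced share of these was 18.1% and 13.1% in siControl before serum and 14% and 15% after it. It was 14.8% and 20.9%, then 19.9% and 8.70%, in siPFDN2. In siPFDN5 it was 20.4% and 20.03%, then 14.2% and 9.24% in the libraries labelled siPFDN5 after serum. The groups overlapped in siControl and siPFDN2 and did not in siPFDN5. The mean change after serum within siRNAs was -4.39 percentage points, and a two-sided exact permutation test within siRNAs gave p = 0.12, where the smallest p its 216 arrangements allow is 0.00926. By siRNA the means changed by -1.09 points in siControl, -3.57 in siPFDN2 and -8.51 in siPFDN5, with 2 libraries a group and no test of their difference.

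Scaled to 1000000 estimated counts a library (estimated CPM), the spliced form stood at 11.1 ± 0.680 (SD, n = 2) in siPFDN5 before serum and 9.94 ± 2.84 in the libraries labelled siPFDN5 after serum. The unspliced form stood at 43.8 ± 1.88 and 75.0 ± 4.07. In siControl the unspliced form stood at 54.3 ± 7.82 before serum and 53.0 ± 2.73 after it. In these estimates the higher XBP1 level of the libraries labelled siPFDN5 after serum thus lay in the unspliced form. The spliced form differed by less than its spread. The annotated forms also differ outside the 26 bases (XBP1-202 has 1131 bases and XBP1-201 has 1850). Reads across the splice site were not counted, and the error of the estimates was not used.

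**Figure D5:**
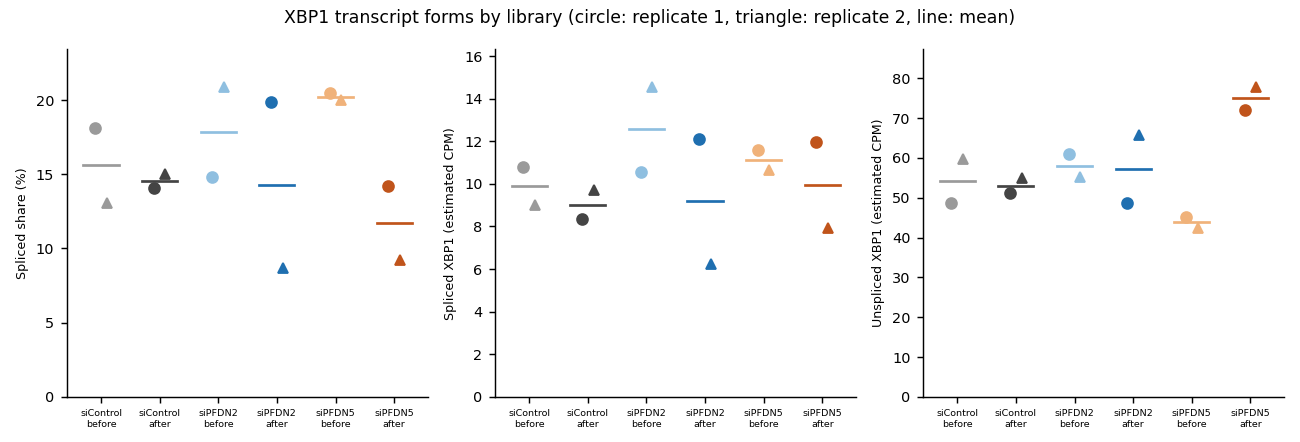
Spliced share of XBP1 in percent (left) and the spliced and unspliced forms in estimated CPM (middle and right) in the 12 libraries by group; circles are replicate 1, triangles replicate 2 and lines the group means, and all axes start at 0. The unspliced form is highest in the libraries labelled siPFDN5 after serum (72.1 and 77.9), and the spliced share there is 14.2% and 9.24%.

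The rest of both pathways was read from 39 other genes of the amino acid response, of which 37 were tested, and from 43 other genes of ER folding and export, all tested. In siControl 3 of the 37 rose after serum and none of the 43 was called. Of all genes 2.47% were called higher and 0.394% lower there. The 3 were GADD45A, a growth arrest gene also under p53 (1.88, SE 0.16), the secreted glycoprotein STC2 (1.08, SE 0.15) and the mitochondrial folate enzyme MTHFD1L (0.84, SE 0.19). In siPFDN2, GADD45A (1.47, SE 0.16) and PPP1R15B (0.69, SE 0.15), the constitutive counterpart of PPP1R15A, rose. DDIT4, an inhibitor of mTORC1, fell (-0.73, SE 0.17). None of the 43 was called, and of all genes 2.06% were called higher and 1.2% lower.

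In siPFDN5, 5.72% of all genes were called higher and 6.48% lower in the libraries labelled siPFDN5 after serum. Of the 37 genes, 7 rose and 2 fell. The rises were led by GADD45A (1.23, SE 0.16), the stress cytokine GDF15 (0.97, SE 0.24) and STC2 (0.79, SE 0.15), and the mitochondrial folate enzyme ALDH1L2 (-1.15, SE 0.19) and DDIT4 (-0.65, SE 0.17) fell. Of the 43 ER genes 5 rose and none fell, led by the degradation factor SELENOS (0.84, SE 0.17), the membrane-bound factor CREB3 (0.81, SE 0.14) and SRPRB, a subunit of the signal recognition particle receptor (0.65, SE 0.14). The medians were 0.15 over the 37 and 0.16 over the 43, below the 0.41 and 0.32 of the 2 branches. In the libraries labelled siPFDN5 after serum against siControl after serum none of these genes was called, and 0.00358% of all genes were. The medians were 0.15 and 0.13, against -0.04 over all genes. Leaving out replicate 2 of siPFDN2 before serum, 12 of the 37 were called higher and 2 lower in that comparison, and 15 of the 43 higher and 4 lower. Of all genes 13.8% were then called higher and 10.1% lower. Over all 12 libraries the median of 0.13 over the 43 other ER genes stood against 0.47 over the 18 ER chaperone genes, a description with no test.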

How the data were processed

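RNA-seq libraries of HCT116 cells were grouped by the siRNA and time in the sample titles. The authors deposited raw counts per gene, over gene bodies and over exons, made with featureCounts 1.5.2 on Ensembl release 87 of GRCh38 without a strand option, per the file headers. HISAT2 and kallisto 0.43 are named in the submitters' processing notes. The deposited transcript files hold estimated counts (expected counts) per transcript, whatever their name. A further 6 columns of counts matched no label and were not used.

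The 39 genes and the other gene lists were chosen with earlier results of these data known. Any of the 39 could be named; of the other lists, the called genes with the largest rises and falls, at most 3 in each direction per comparison.

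The main test was edgeR 4.0.16 on gene-body counts (R 4.3.3): filterByExpr, TMM scaling, robust quasi-likelihood fits of 6 group means over all 12 libraries, and 11 contrasts with Benjamini-Hochberg adjustment at 0.05 over 27915 genes. The SE is the log2 difference over the root of F. Depth was 59784425 to 136504590 counts per library. Counting error weighs most on NUPR1 and VLDLR, and next on CHAC1, which had 123 to 381 counts a library. Alternatives were DESeq2 1.42.0, other scalings, no filter, exon or intronic counts, a lowess GC correction (span 0.3), a replicate block, only the compared libraries, and leaving out each library. The fit was tested on simulated data. XBP1 forms were sorted by the presence of the intron sequence in GENCODE transcripts, and estimated counts were used unrounded as shares. Promoters came from RefSeq.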

Additional observations from a re-analysis of the deposited data

How the results depend on the processing

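The number of the 39 genes called depended on the libraries, counts and model used. The share of all genes called also moved between fits, and is given below for only some of them. Where it is not given, a count of the 39 genes called does not set them apart from other genes. Leaving out 1 library at a time gave 1 to 6 in the serum response of siControl, 1 to 30 in siPFDN2 and 1 to 27 in siPFDN5. It gave 0 to 26 in siPFDN2 and 0 to 11 in siPFDN5 against siControl before serum, and 0 to 21 in siPFDN5 against siControl after serum. It gave 0 to 32 before and 0 to 8 after serum in siPFDN5 against siPFDN2, and 0 to 26 and 0 to 21 in the differences of the siPFDN2 and siPFDN5 responses from siControl. The values of 26, 30 and 32 came without replicate 1 of siPFDN2 before serum, which leaves replicate 2 as its group. Without replicate 2 the counts were 0, 2, 4 and 0 in siPFDN2 against siControl before serum, its serum response, siPFDN5 against siPFDN2 before serum and the siPFDN2 difference. The siPFDN5 serum response fell to 1 and 2 calls without replicate 1 or 2 before serum and to 2 and 3 without replicate 1 or 2 of those labelled siPFDN5 after serum. Without replicate 2 of siControl after serum, siPFDN5 against siControl after serum had 4 calls, the siPFDN5 difference 5 and siPFDN5 against siPFDN2 before serum 3, also 3 without its replicate 1.

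Removing the GC trend gave 3, 4 and 21 calls in the serum responses of siControl, siPFDN2 and siPFDN5. Of all genes 6.34%, 6.72% and 29.3% were called there. In siPFDN5 against siControl it gave 1 call before serum (0.652% of all genes) and 13 after it (13.5%). In siPFDN5 against siPFDN2 it gave 3 before serum (6.36%) and 1 after it (0.552%). In the siPFDN5 difference it gave 6 (8.69%). With no filter the calls were 2 and 8 in the siControl and siPFDN2 responses, and 2 and 1 in siPFDN2 and siPFDN5 against siControl before serum. They were 7 after it in siPFDN5, 10 in siPFDN5 against siPFDN2 before serum, and 2 in each difference. DESeq2 gave 2 and 5 in the siControl and siPFDN2 responses, and 1 in siPFDN2 against siControl before serum (0.102% of all genes). It gave 6 in siPFDN5 against siControl after serum (7.76% of all genes) and 3 in the siPFDN5 difference (6.77%). In siPFDN5 against siPFDN2 it gave 8 before serum (16.3%) and 1 after it (0.4%). Fits of only the compared libraries gave 2, 0 and 29 in the 3 responses, 17 and 9 in siPFDN5 against siControl before and after serum, 17 in siPFDN5 against siPFDN2 after serum, and 12 in the siPFDN5 difference. Intronic counts gave 3 and 9 in the siControl and siPFDN2 responses, 1 in siPFDN5 against siControl after serum, 7 in siPFDN5 against siPFDN2 before it and 4 in the siPFDN5 difference, and reversed SLC3A2 (-0.13). Exon counts gave 5 in the siPFDN5 response, where 4.22% of all genes were called, and library size scaling gave 3 in that of siPFDN2. The cause of these changes in the counts was not tested.

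The replicate numbers were not taken as pairs in the main test. The log2 differences between replicates 1 and 2 were correlated between groups. Over 15 group pairs the correlation ran from -0.322 to 0.592, with 4 over 0.1, which does not show whether replicates were paired. The replicate block alone moved no count by over 1.5 times. With the replicate block and the GC trend removed the counts were 3, 3 and 19 in the 3 responses, 1 and 11 in siPFDN5 against siControl before and after serum, and 3 in siPFDN5 against siPFDN2 before it. The XBP1 share changed by -6.25 to -2.53 points when 1 library was left out, with an exact permutation p of 0.0463 without replicate 2 of siControl before serum (-5.23), and p = 0.219 with the replicate block. PPP1R15A kept its call in 21 of 22 alternatives in siControl and in siPFDN5, and in 20 in siPFDN2. Over them its log2 rise ran from 0.74 to 1.93 in siControl, 0.83 to 1.90 in siPFDN2 and 0.90 to 1.95 in siPFDN5. In siPFDN2 the call was lost with only the compared libraries. In siPFDN5 ATF4 kept its call in 19 of 21 and CHAC1 in 10 of 21, and of 22 VLDLR in 20, XBP1 and HERPUD1 in 17, SLC3A2 in 15 and ERN1 in 12. Depth limits NUPR1, VLDLR and CHAC1, which had as few as 2, 5 and 123 counts in a library.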
